A study of Mus musculus with 8 samples.

Results

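Tumor necrosis factor (TNF) superfamily genes carried H3K4me3 in sorted lung tumor cells at 84 peaks, which lay on 37 genes, out of 35486 listed peaks on 20871 genes. Members were all peaks whose annotated gene symbol was Tnf, Lta, Ltb, Ltbr, Fas, Fasl, Cd40, Cd40lg, Cd27, Cd70, Eda or Edar, or began with Tnfsf or Tnfrsf followed by a number. Of the 43 genes that were sorted by role, Ltb, Cd40lg, Cd70, Tnfsf18, Tnfrsf17 and Ltbr had no peak listed under their symbol.

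H3K4me3 was compared between tumor cells of KL mice (a lung tumor model with Lkb1fl/fl, 2 libraries, numbered 1 and 2) and of KLG4m/m mice (the same model with Gpx4m/m, 2 libraries, numbered 3 and 4). Both groups carried floxed Lkb1 on the C57BL/6 background, both were given Cre adenovirus (Ad-Cre) through the nose as young adults and both received tamoxifen, and lungs were taken 10 weeks after Ad-Cre. In KLG4m/m mice some exons of the Gpx4 gene were flanked by rox sites, and the locus also held a tamoxifen-dependent Dre recombinase. The CAG promoter drove this recombinase once Cre had removed a stop cassette, so that cells reached by Cre lost Gpx4 after tamoxifen. Ad-Cre reaches any cell type it infects, and each library came from 1000000 cells sorted as CD45-CD31-EpCAM+. Gpx4 encodes a peroxidase that detoxifies lipid hydroperoxides, and the comparison asked how its loss in established tumors was accompanied by changes in the histone mark.

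H3K4me3 is a histone modification found around the start sites of active and poised genes, so a peak describes the state of the chromatin and not the amount of RNA. TNF superfamily ligands are mostly trimeric proteins on the cell surface or shed from it, and each binds one or a few receptors of the matching receptor superfamily. Receptors with a death domain recruit adaptors that lead to caspase activation or to NF-kB, receptors without one recruit TRAF proteins, and decoy receptors bind ligand without passing on a death signal. In tumors these genes are known for killing of tumor cells by lymphocytes, inflammation, and exchange of signals between epithelium, lymphocytes and myeloid cells.

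The 4 libraries held between 3244495 and 3463731 reads in listed peaks. Gpx4 itself had 242 and 236 KL reads at its start site against 304 and 301 KLG4m/m reads. This peak passed the threshold as higher in KLG4m/m cells (log2 fold change 0.4, adjusted p = 0.00854 in edgeR). The deleted exons lie downstream of the peak, so it does not check the deletion. The epithelial label was checked on marker genes: 7 of 7 epithelial markers had a listed peak, with a summed level of 342 to 345 CPM (counts scaled to the total of reads in listed peaks) in KL and 302 to 307 CPM in KLG4m/m libraries. T cell markers (9 of 9 with a peak) reached 313 to 325 CPM in KL and 342 to 370 CPM in KLG4m/m libraries. B cell markers (8 of 9) reached 80.3 to 83.6 CPM in KL and 141 to 147 CPM in KLG4m/m libraries. Macrophage markers (8 of 9) reached 227 to 238 CPM and 285 to 292 CPM in the same order. No marker with a listed peak was at 0. In an edgeR quasi-likelihood test of reads summed over each gene's peaks, 6 of 8 B cell markers, 2 of 8 macrophage markers, 1 of 9 T cell markers and 1 of 4 pan-leukocyte markers rose in KLG4m/m cells, whereas 2 of 7 epithelial and 4 of 6 alveolar type 2 markers fell, among them Epcam, whose product was used for the sort (log2 fold change -0.82 ± 0.134 (SE), adjusted p = 1.56e-06 in edgeR). The fibroblast marker Pdgfrb rose and the endothelial marker Tek fell, each alone on its list. A smaller share of a cell type and less H3K4me3 per cell cannot be told apart in such bulk libraries.

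**Figure D1:**
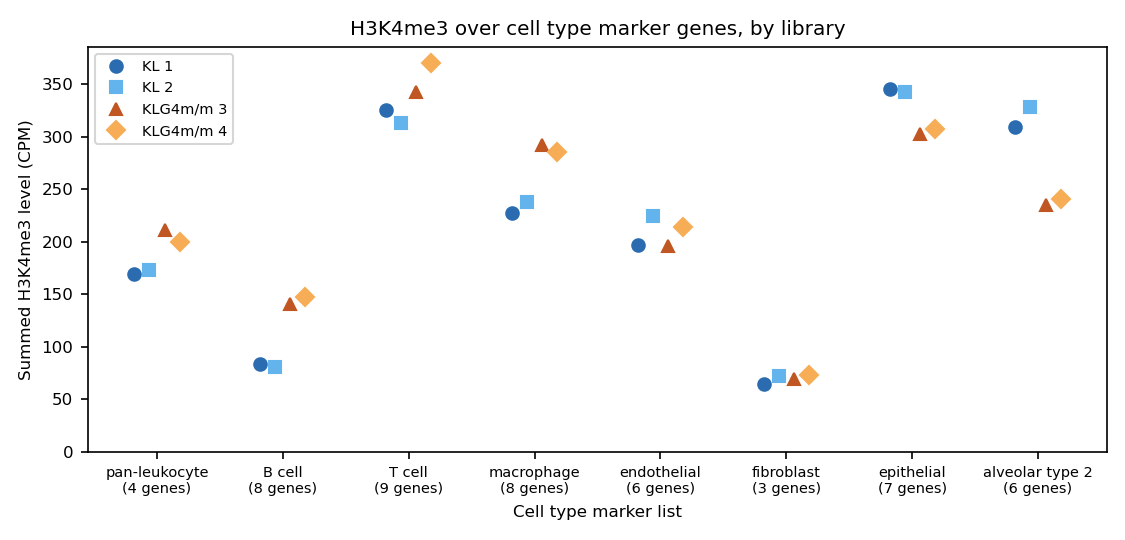
Summed H3K4me3 level (CPM, vertical axis) over the genes of each cell type marker list, with 1 point for each of the 4 libraries. The 2 KLG4m/m libraries lie above both KL libraries for B cell markers (141 and 147 against 83.6 and 80.3 CPM) and beneath them for alveolar type 2 markers (235 and 241 against 309 and 328 CPM).

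Promoter sequences are shown for the members with a called peak near the start site and a RefSeq entry, and for the pair with the highest level, since H3K4me3 is known to gather at CpG-rich start sites. They are the 250 bases before the start site from RefSeq (GRCm38.p6), read 5′ to 3′ on the gene's strand, with each CpG in capitals. RefSeq entries were matched by symbol for 29 of 37 member genes, in 33 entries. Tnfsf15 (chr4:63745060-63745309, minus strand), Tnfsf8 (chr4:63861285-63861534, minus strand), Tnfsf14 (chr17:57194182-57194431, minus strand), Tnfrsf11a (chr1:105780473-105780722, plus strand) and Tnfrsf23 (chr7:143685876-143686125, minus strand) belong to the first set. Tnfsf10 (chr3:27316827-27317076, plus strand) and Tnfrsf14 (chr4:154928078-154928327, minus strand) had the highest start site levels.
Tnfsf15: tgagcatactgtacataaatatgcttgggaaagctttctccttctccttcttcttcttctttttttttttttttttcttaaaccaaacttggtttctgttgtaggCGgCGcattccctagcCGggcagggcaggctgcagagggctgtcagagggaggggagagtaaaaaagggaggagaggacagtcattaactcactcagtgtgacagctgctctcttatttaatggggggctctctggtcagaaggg
Tnfsf8: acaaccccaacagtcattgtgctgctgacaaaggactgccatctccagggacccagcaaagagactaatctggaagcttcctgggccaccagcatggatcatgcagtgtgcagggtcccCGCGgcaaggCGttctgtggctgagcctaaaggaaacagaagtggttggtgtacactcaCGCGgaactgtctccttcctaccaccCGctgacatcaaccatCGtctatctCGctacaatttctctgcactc
Tnfsf14: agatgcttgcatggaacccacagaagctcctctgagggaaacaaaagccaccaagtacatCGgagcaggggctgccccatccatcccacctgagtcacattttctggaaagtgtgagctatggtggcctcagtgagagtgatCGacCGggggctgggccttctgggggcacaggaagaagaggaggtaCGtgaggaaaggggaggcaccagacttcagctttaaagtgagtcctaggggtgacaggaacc
Tnfrsf11a: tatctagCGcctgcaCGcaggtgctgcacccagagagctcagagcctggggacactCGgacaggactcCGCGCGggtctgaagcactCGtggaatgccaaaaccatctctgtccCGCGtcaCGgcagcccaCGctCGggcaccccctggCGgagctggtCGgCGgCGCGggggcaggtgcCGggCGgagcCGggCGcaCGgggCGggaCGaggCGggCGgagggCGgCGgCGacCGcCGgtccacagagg
Tnfrsf23: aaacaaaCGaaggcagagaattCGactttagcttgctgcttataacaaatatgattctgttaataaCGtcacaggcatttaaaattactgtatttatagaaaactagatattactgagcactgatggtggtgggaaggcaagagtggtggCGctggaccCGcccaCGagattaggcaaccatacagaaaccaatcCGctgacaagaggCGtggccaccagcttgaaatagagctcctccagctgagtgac
Tnfsf10: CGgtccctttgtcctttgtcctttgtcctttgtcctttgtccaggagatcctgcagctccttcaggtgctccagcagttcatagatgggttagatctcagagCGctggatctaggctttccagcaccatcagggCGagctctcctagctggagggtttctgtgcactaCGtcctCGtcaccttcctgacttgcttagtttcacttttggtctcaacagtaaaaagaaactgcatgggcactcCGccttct
Tnfrsf14: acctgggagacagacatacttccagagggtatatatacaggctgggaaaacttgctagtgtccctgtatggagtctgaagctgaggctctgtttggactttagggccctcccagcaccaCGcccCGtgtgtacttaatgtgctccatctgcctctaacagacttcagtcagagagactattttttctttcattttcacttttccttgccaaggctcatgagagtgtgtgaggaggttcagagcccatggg

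These stretches differed widely in CpG content. Tnfrsf11a held 31 CpG, a ratio of observed to expected CpG of 0.924, whereas Tnfrsf14 held 2, a ratio of 0.132, and Tnfsf10 held 6, a ratio of 0.365. The median ratio was 0.434 over the 33 member entries and 0.373 over all 32851 promoters of the same length. Across the 27 genes with both an entry and a start site peak, the ratio and the H3K4me3 level had a Pearson r of -0.11 and a Spearman rho of -0.0284, a description across genes of the same 4 libraries. Each gene was represented by its entry with the highest ratio and by its strongest start site peak. In genes with several start sites, such as Tnfrsf13b and Tnfrsf9, the entry and the peak may belong to different ones. The ratio and the log2 fold change had an r of -0.12 and a rho of -0.0854 in the same genes.

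Short motifs were searched on both strands of the same stretches, and a match is a description of letters, not a binding site. The AP-1 motif TGANTCA occurred in 6 of 33 member entries (18.2%), those of Fas, Tnfrsf8, Tnfrsf9, Tnfsf13, Tnfsf13b and Tnfsf14, against 6.75% of all promoters. The NF-kB motif GGGNNTTCC was found for Tnfrsf13b and Tnfrsf9 (6.06% of entries against 4.98% of all promoters). TATAAA was present for Lta, Tnf, Tnfrsf23 and Tnfsf11 (12.1% against 12.4%), and in Tnf it began 29 bases before the start. CCGGAA, the core of ETS sites, was present for Tnfrsf12a, Tnfrsf18, Tnfrsf1a and Tnfrsf1b (12.1% against 12%).

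Start site levels spanned a wide range among the members. Of the 84 peaks, all 400 bp long, 36 lay within 1 kb of a start site, 21 in introns, 16 in distal intergenic regions, 5 at 1 to 2 kb, 2 at 2 to 3 kb, 3 in exons and 1 in a 5′ UTR. Levels of equally long peaks can be compared between genes, and the median over the 36 start site peaks was 26.9 CPM, against 41.2 CPM over all 17073 start site peaks of the table. The highest were Tnfsf10 at 82.8 CPM and Tnfrsf14 at 82.6 CPM, with 14% and 14.2% of all start site peaks above them, and the lowest were Tnfrsf8 at 6.1 CPM and a second Tnfrsf13b peak at 6.02 CPM. Between 1 and 7 peaks were listed for a gene, with 17 genes at 1 peak and Tnfrsf1b at 7.

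**Figure D2:**
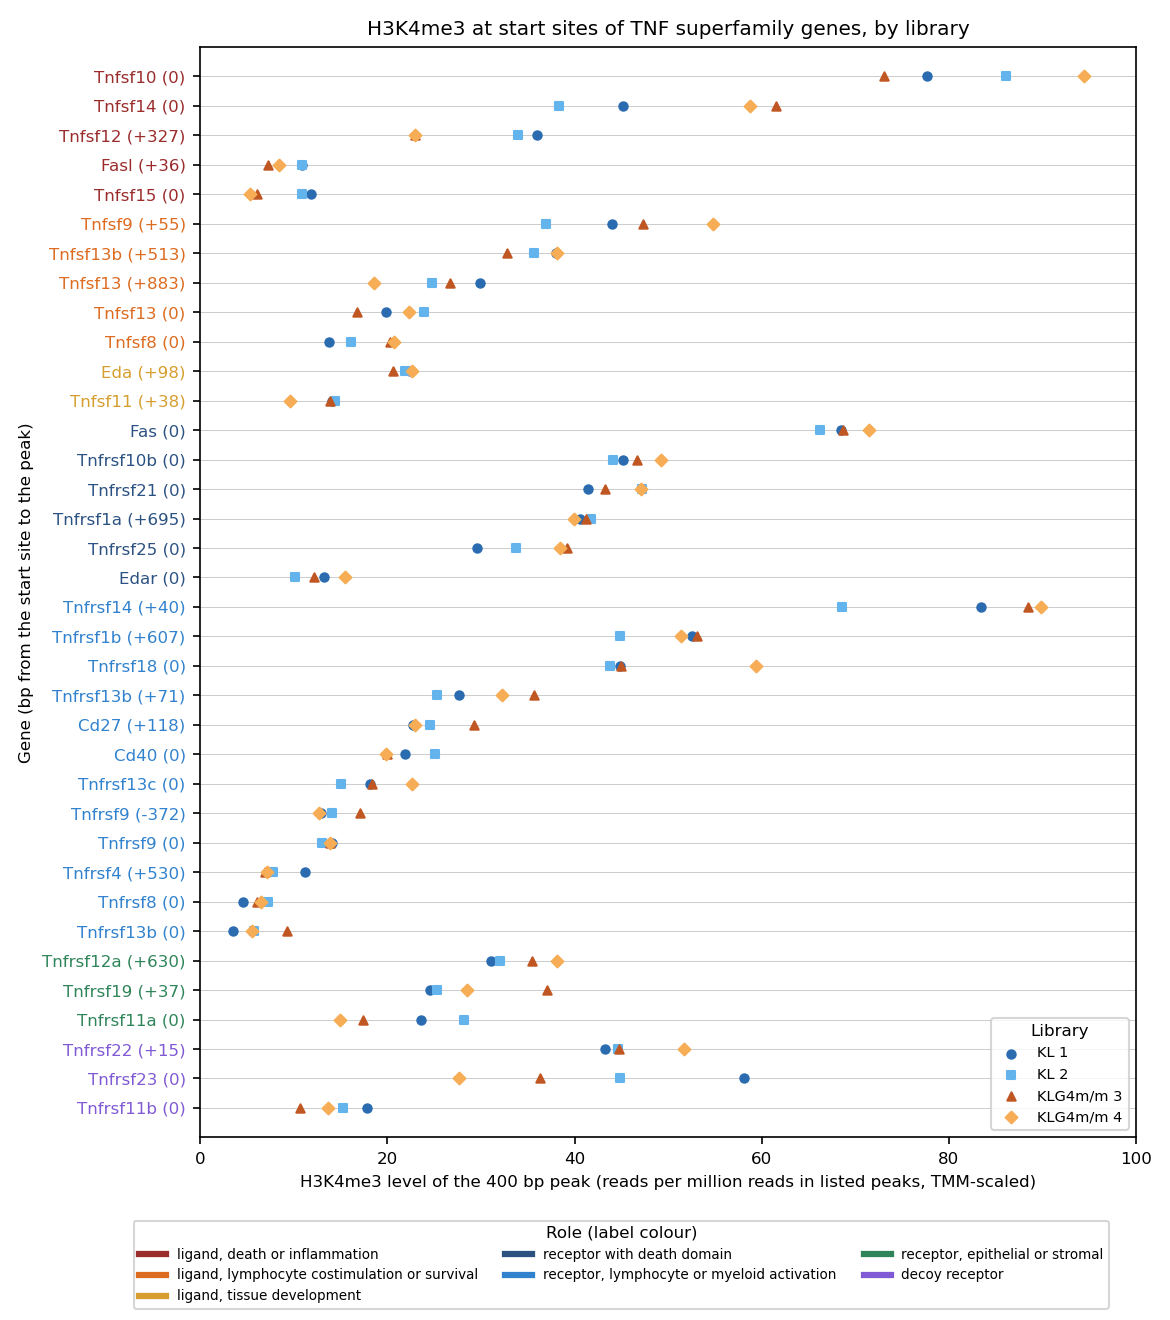
H3K4me3 level in each of the 4 libraries (CPM, horizontal axis) for the 36 peaks within 1 kb of a start site, grouped by role through the label colour and sorted by level within a role. Tnfsf10, Tnfrsf14 and Fas stand highest in every library. Both KLG4m/m points lie above both KL points at 13 of the 36 peaks and beneath them at 9. Of all 17073 start site peaks, 4763 and 4966 have these patterns. The called peaks of Tnfsf12, Tnfsf15, Tnfsf14, Tnfrsf11a and Tnfrsf23 are among the separate ones.

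The share of called peaks in the family lay close to that of the whole table. With edgeR's quasi-likelihood test over all listed peaks and an adjusted p under 0.05, 3 of 84 member peaks were higher in KLG4m/m cells (3.57%), where 3.1% of all listed peaks were, and 5 were lower (5.95%), where 5.52% were. The fold changes ran from -1.38 to 1.03 on the log2 scale with a median of 0.14, against 0.01 over all peaks, and 56 member peaks lay above 0. Both KLG4m/m libraries were above both KL libraries at 31 member peaks, where 27.5% of all peaks had this pattern, and beneath them at 18, where 26.6% did. Of the 36 start site peaks, 1 was higher and 4 were lower, beside 2.89% and 8.43% of all start site peaks.

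No member call was kept under every alternative. With DESeq2 none of the 8 passed (adjusted p of 0.121 or more, with the distal Tnfsf10 peak given none), with limma none passed, and with KLG4m/m replicate 3 or replicate 4 left out none passed in edgeR, where no peak of the whole table passed either. At an unadjusted p under 0.05, all 8 remained in DESeq2 and limma, 5 without replicate 3 and 6 without replicate 4. Without KL replicate 1 the Tnfsf8, Tnfsf14 and Tnfrsf11a calls were kept, and without KL replicate 2 those of Tnfsf4, Tnfsf12, Tnfrsf23 and the distal Tnfsf10 peak were kept.

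**Figure D3:**
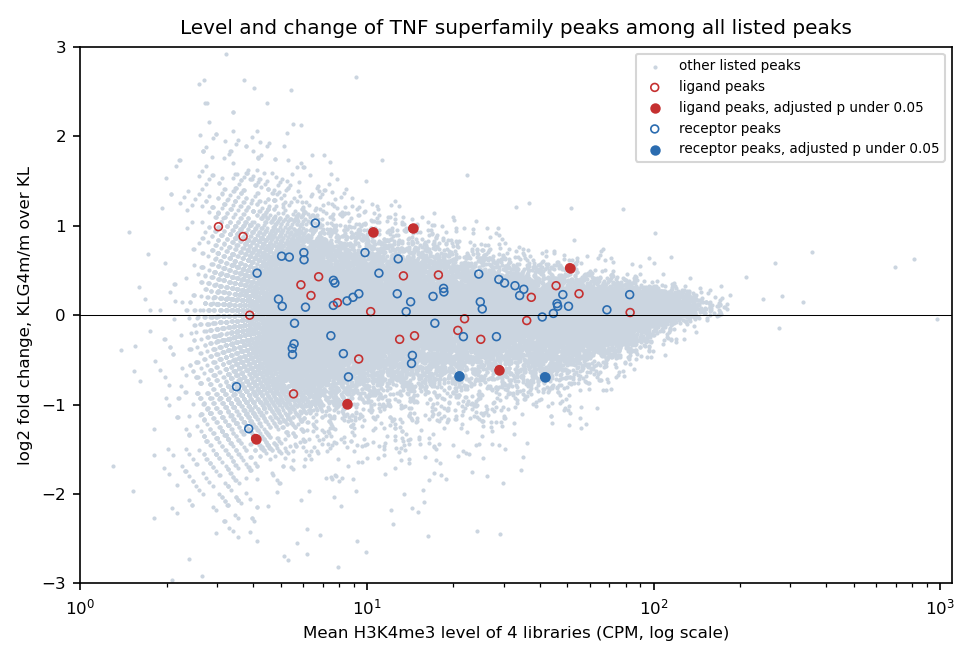
Log2 fold change of KLG4m/m over KL (vertical axis) against mean level in CPM (log scale) for all listed peaks in grey, with ligand and receptor peaks in color and filled where the adjusted p was under 0.05. The member peaks lie within the cloud of all peaks, and 18 listed peaks fall outside the axes.

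Ligands held 6 of the 8 calls. Of 28 ligand peaks, 3 were higher and 3 lower (10.7% each) in edgeR. Of 56 receptor peaks none was higher and 2 were lower (3.57%). Among all listed peaks 3.1% were higher and 5.52% lower, and the difference between ligands and receptors was not tested. At an unadjusted p under 0.05 in edgeR, 16 member peaks were higher and 10 lower, where 11.2% and 13.5% of all listed peaks were, and 9 of the higher ones were receptor peaks.

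Among the ligands of death and inflammation, Tnfsf14, Tnfsf12 and Tnfsf15 changed at their start sites and in different directions. Tnfsf14 encodes LIGHT, which binds the receptor of Tnfrsf14 and the lymphotoxin beta receptor and activates lymphocytes and stroma. Its start site peak (chr17:57500879-57501279, as in the table, whose gene positions are not those of GRCm38.p6) had 157 and 133 KL reads against 212 and 190 KLG4m/m reads. Both KLG4m/m values were above both KL values, and the peak rose by a log2 fold change of 0.53 ± 0.119 (SE; edgeR adjusted p = 0.00605). The mean level was 41.7 ± 4.85 CPM in KL and 60.2 ± 1.88 CPM in KLG4m/m cells (SD, n = 2). An intergenic Tnfsf14 peak at -7958 bp from the start site (minus for upstream) had the opposite sign, with 24 and 26 against 15 and 11 reads (log2 fold change -0.88, adjusted p = 0.102 in edgeR).

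Tnfsf12 encodes TWEAK, the ligand of the receptor Fn14 that Tnfrsf12a encodes. Its peak 327 bp past the start (chr11:69586197-69586597) fell from 125 and 118 reads to 79 and 74, a log2 fold change of -0.61 ± 0.151 (adjusted p = 0.0113 in edgeR). The groups did not overlap, at 35.0 ± 1.39 CPM in KL and 22.9 ± 0.00112 CPM in KLG4m/m cells (SD, n = 2). Tnfrsf12a itself had 108 and 111 against 122 and 123 reads, a log2 fold change of 0.22 ± 0.139 that missed the threshold (adjusted p = 0.343 in edgeR).

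Tnfsf15 encodes TL1A, the ligand of the death domain receptor of Tnfrsf25. Its start site peak (chr4:63663023-63663423) was weak and fell from 41 and 38 reads to 21 and 17, a log2 fold change of -0.99 ± 0.273 (adjusted p = 0.0219 in edgeR), and the call was lost when any 1 library was left out. Tnfrsf25 had 103 and 117 reads against 135 and 124, with a log2 fold change of 0.29 ± 0.139 (adjusted p = 0.19 in edgeR).

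Tnfsf10 encodes TRAIL, which kills cells through the receptor of Tnfrsf10b. Its start site had the highest H3K4me3 of the family, with 270 and 299 KL reads against 252 and 305 KLG4m/m reads, and the groups overlapped (log2 fold change 0.03 ± 0.107, adjusted p = 0.904 in edgeR). A small peak at -14218 bp (chr3:27356608-27357008) had 25 and 16 KL reads against 5 and 10 KLG4m/m reads. It fell by 1.38 ± 0.443 on the log2 scale (adjusted p = 0.0485 in edgeR), the weakest of the 8 calls by adjusted p, at a mean of 5.9 ± 1.83 and 2.27 ± 1.16 CPM (SD, n = 2). Assignment of so distant a peak to Tnfsf10 is by the nearest start site.

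The other ligands of this group did not pass the test. Tnf, the founding member, had 1 listed peak, 1144 bp past its start, with 173 and 177 reads against 183 and 213 (log2 fold change 0.24 ± 0.119, adjusted p = 0.218 in edgeR) at 54.9 CPM. Lta, which encodes lymphotoxin alpha and neighbours Tnf, had 2 distal intergenic peaks at log2 fold changes of 0.2 and -0.23, the stronger at 37.5 CPM. Another peak (chr17:35423378-35423778) lay inside the listed Lta span (35422378-35424568) but was assigned to Mir6974, so the symbol rule left it out. It had 54 and 63 KL reads against 66 and 68 KLG4m/m reads (log2 fold change 0.25, adjusted p = 0.423 in edgeR). Fasl, whose product on cytotoxic lymphocytes triggers Fas, had 4 peaks between -0.49 and 0.43 and reached 10.3 CPM at a distal peak.

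Among ligands that costimulate lymphocytes or keep them alive, Tnfsf8 and Tnfsf4 rose. Tnfsf8 encodes CD30 ligand, and its peak 1553 bp past the start (chr4:63777568-63777968) had 41 and 27 KL reads against 74 and 54 KLG4m/m reads. The groups did not overlap, and the log2 fold change was 0.97 ± 0.227 (adjusted p = 0.00794 in edgeR). At the start site itself the reads were 48 and 56 against 70 and 67 (0.45 ± 0.189, adjusted p = 0.132 in edgeR), and of the 5 Tnfsf8 peaks 4 lay above 0.

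Tnfsf4 encodes OX40 ligand, which costimulates T cells through the receptor of Tnfrsf4. Its only listed peak, 1044 bp past the start (chr1:161224053-161224453), had 16 and 34 KL reads against 49 and 43 KLG4m/m reads, a log2 fold change of 0.93 ± 0.275 (adjusted p = 0.0325 in edgeR). The KL libraries differed from each other by more than the KLG4m/m libraries did, and without KL replicate 1 the value was 0.49 (adjusted p = 0.357 in edgeR). Tnfrsf4 had 39 and 27 against 24 and 23 reads (-0.43, adjusted p = 0.356 in edgeR) and, at 8.27 CPM, the lowest strongest peak of any member gene. B cell markers were higher in both KLG4m/m libraries too (6 of 8 genes past the threshold). So were the summed levels of macrophage markers (2 of 8 past the threshold) and T cell markers (1 of 9). The part of these lists in the Tnfsf8, Tnfsf4 and Tnfsf14 values was not tested.

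Tnfsf9, which encodes the ligand of 4-1BB, had the strongest start site of these ligands at 45.7 CPM, with 153 and 128 reads against 163 and 177 (log2 fold change 0.33 ± 0.129, adjusted p = 0.106 in edgeR). Tnfsf13b, encoding the B cell survival factor BAFF, and Tnfsf13, encoding its relative APRIL, had 36.1 and 25 CPM at their strongest peaks, with -0.06 and -0.27. In tissue development, Eda, the ectodysplasin gene, had 78 and 76 against 71 and 73 reads (-0.04 ± 0.17, adjusted p = 0.915 in edgeR) at 21.9 CPM. Tnfsf11, encoding RANKL, had 13.0 CPM and a value of -0.27.

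No peak of the 6 receptor genes with a death domain passed in edgeR, out of 19 peaks with a median log2 fold change of 0.16, and 3 were higher at an unadjusted p under 0.05, beside 11.2% of all listed peaks. Fas had the strongest of them, with 238 and 230 KL reads against 237 and 231 KLG4m/m reads at its start site (0.06 ± 0.0994, adjusted p = 0.77 in edgeR) and 68.7 CPM. Tnfrsf10b, the mouse TRAIL receptor gene, had 157 and 153 against 161 and 159 reads at its start site (0.1 ± 0.12, adjusted p = 0.639). An intronic Tnfrsf10b peak 6891 bp past the start was just outside the threshold, with 73 and 71 against 99 and 91 reads (0.46 ± 0.161, adjusted p = 0.0749 in edgeR), and all 3 Tnfrsf10b peaks lay above 0.

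Tnfrsf1a, which encodes the main TNF receptor of epithelial cells, had 141 and 145 reads against 142 and 129 in its peak 695 bp past the start. These values overlapped (log2 fold change -0.02 ± 0.127, adjusted p = 0.943 in edgeR) at 40.9 CPM, and 2 of its 5 peaks lay within the neighbouring sodium channel gene Scnn1a. Tnfrsf21, encoding death receptor 6, had 44.7 CPM and 5 peaks from -0.8 to 0.65. Tnfrsf25 reached 35.2 CPM and Edar, the ectodysplasin receptor gene, 12.7 CPM.

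Receptors that activate lymphocytes or myeloid cells held 28 peaks on 10 genes, and none passed in edgeR although 22 lay above 0 (median 0.2) and 5 were higher at an unadjusted p under 0.05, beside the same 11.2%. Tnfrsf14, encoding the herpesvirus entry mediator, had 290 and 238 KL reads against 305 and 290 KLG4m/m reads (0.23 ± 0.0993, adjusted p = 0.149 in edgeR). Cd40, whose product on B cells and other antigen-presenting cells binds CD40 ligand, went the other way with 76 and 87 against 69 and 64 reads (-0.24 ± 0.172, adjusted p = 0.419 in edgeR) at 21.7 CPM. The groups did not overlap at either gene, and neither difference passed the threshold.

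The peak nearest to the threshold on its outer side was a distal intergenic one assigned to Tnfrsf13c, which encodes the BAFF receptor of B cells. This peak, 5360 bp past the start, had 10 and 20 reads against 26 and 33, a log2 fold change of 1.03 ± 0.337 (adjusted p = 0.0543 in edgeR), and passed when KL replicate 2 was left out. Tnfrsf13b, encoding the related receptor TACI, had 6 peaks, of which 5 lay above 0, and 30.2 CPM at the strongest. The B cell marker list moved in the same direction (median log2 fold change 0.81 over 8 genes), and its part in these values was not tested.

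The remaining receptors of this group spanned the range of levels. Tnfrsf1b, encoding the second TNF receptor, had 50.5 CPM at its start site and 6 of 7 peaks above 0, with an intronic peak 13124 bp past the start at 0.63 ± 0.223 (adjusted p = 0.0779 in edgeR). One of its peaks lay within the gene model Gm36233. Tnfrsf18, encoding GITR, had 48.3 CPM, Cd27 24.9 CPM, Tnfrsf9, encoding 4-1BB, 14.2 CPM, and Tnfrsf8, encoding CD30, 11 CPM at a peak 2991 bp past its start.

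Of the receptors of epithelium and stroma, Tnfrsf11a fell. It encodes RANK, the receptor of RANKL known from osteoclasts and mammary epithelium. Its start site peak (chr1:105708113-105708513) had 82 and 98 KL reads against 60 and 48 KLG4m/m reads. The groups did not overlap, and the log2 fold change was -0.68 ± 0.181 (adjusted p = 0.0183 in edgeR), at 25.9 ± 3.28 CPM in KL and 16.1 ± 1.8 CPM in KLG4m/m cells (SD, n = 2). An intronic peak 6531 bp past the start pointed the same way with 18 and 20 against 6 and 9 reads (-1.27 ± 0.43, adjusted p = 0.0618 in edgeR). The summed level of the epithelial markers was also lower in both KLG4m/m libraries (302 and 307 against 345 and 342 CPM). Of these markers, Epcam and Cdh1 fell, 3 of 7 lay above 0 (Esrp1 at 0.27, Krt19 at 0.11 and Krt18 at 0.07 on the log2 scale) and the median was 0.0. Alveolar type 2 markers were lower too (235 and 241 against 309 and 328 CPM), with 4 of 6 past the threshold and a median of -0.54. The part of either list in the Tnfrsf11a value was not tested. Tnfrsf19, encoding TROY, had 85 and 88 against 128 and 92 reads (0.4 ± 0.159, adjusted p = 0.113 in edgeR), and Tnfrsf12a, encoding Fn14, had the highest level of these receptors at 34.1 CPM.

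Decoy receptors included the mouse cluster of Tnfrsf22, Tnfrsf23 and Tnfrsf26, of which Tnfrsf22 and Tnfrsf23 encode TRAIL decoys. Tnfrsf23 fell at its start site (chr7:143239300-143239700) from 202 and 156 reads to 125 and 89, a log2 fold change of -0.69 ± 0.148 (adjusted p = 0.00424 in edgeR), the smallest adjusted p of the 84 peaks. The groups did not overlap, although the libraries within each group differed, at 51.5 ± 9.32 and 31.9 ± 6.15 CPM (SD, n = 2). Tnfrsf22, 36.3 kb away, had 150 and 155 against 154 and 167 reads (0.13 ± 0.124, adjusted p = 0.548 in edgeR) at 46.0 CPM. Tnfrsf11b, which encodes osteoprotegerin, the soluble decoy for RANKL, had 62 and 53 against 37 and 44 reads (-0.45 ± 0.213, adjusted p = 0.191 in edgeR) at 14.4 CPM.

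**Figure D4:**
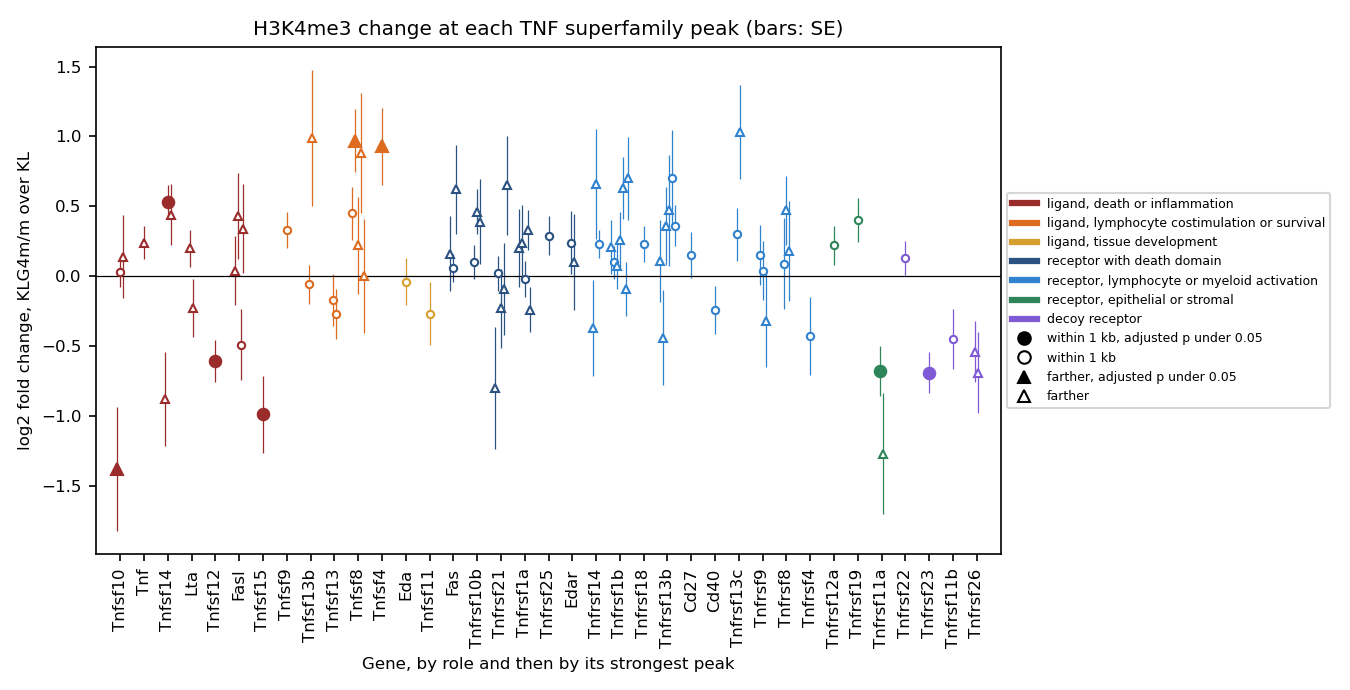
Log2 fold change of KLG4m/m over KL with its SE (vertical axis) for each of the 84 peaks, by gene and role, with circles for peaks within 1 kb of a start site, triangles for others and filled symbols for an adjusted p under 0.05. The 3 filled symbols above 0 belong to Tnfsf14, Tnfsf8 and Tnfsf4, and the 5 beneath 0 to Tnfsf10, Tnfsf12, Tnfsf15, Tnfrsf11a and Tnfrsf23.

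When reads were summed over all peaks of a gene and tested over 20871 genes, 4 of 37 member genes were higher in KLG4m/m cells, where 5.38% of all genes were, and 5 were lower, where 9.63% were. The higher genes were Tnfsf8 (0.57 ± 0.128, adjusted p = 0.000568 in edgeR), Tnfsf14 (0.40 ± 0.104, adjusted p = 0.00364), Tnfsf4 (0.93 ± 0.264, adjusted p = 0.00775) and Tnfrsf13c (0.48 ± 0.169, adjusted p = 0.038). Tnfrsf13c had summed reads of 73 and 72 in KL and 89 and 106 in KLG4m/m libraries, from its distal intergenic and start site peaks. The start site peak alone had 63 and 52 against 63 and 73 reads and did not pass (0.3 ± 0.191, adjusted p = 0.346 in edgeR). The lower genes were Tnfrsf23, Tnfrsf11a (-0.77 ± 0.171, adjusted p = 0.000464 in edgeR), Tnfsf12, Tnfsf15 and Tnfrsf26. Tnfrsf26 is a relative of the decoy receptors, and its 2 peaks summed to 109 and 83 against 73 and 49 reads (-0.60 ± 0.179, adjusted p = 0.0123 in edgeR). A stronger peak (chr7:143182038-143182438), just upstream of the listed Tnfrsf26 start at 143181582, was assigned to E230032D23Rik and was not in this sum. Its groups overlapped, with 84 and 95 KL reads against 88 and 52 KLG4m/m reads (-0.3, adjusted p = 0.335 in edgeR). No member gene passed in DESeq2, in limma, or in edgeR without KLG4m/m replicate 3 or replicate 4, which left 1 library in that group. At an unadjusted p under 0.05 in DESeq2, 3 member genes were higher and 5 lower, where 2501 of all 20871 genes were under it. In limma 4 were higher and 6 lower, where 4767 of all genes were under it.

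Several members are neighbours in the genome, and the values of neighbours were read side by side. Tnfsf15 and Tnfsf8 lie 115 kb apart on chromosome 4 with no peak of another gene between them, and the Tnfsf15 start site fell (-0.99) where the Tnfsf8 peak 1553 bp past its start rose (0.97). In the decoy receptor cluster on chromosome 7, Tnfrsf22 (0.13) lies between Tnfrsf26, with -0.54 and -0.69 at its peaks, and Tnfrsf23 (-0.69). Tnfsf9 and Tnfsf14, 88.4 kb apart on chromosome 17, had values of 0.33 and 0.53, and Tnfsf13 and Tnfsf12, 9.82 kb apart on chromosome 11, had -0.17 and -0.61. Peaks of other genes inside these stretches numbered 2 in the decoy cluster and 1 between Tnfsf9 and Tnfsf14, and none of them passed in edgeR.

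**Figure D5:**
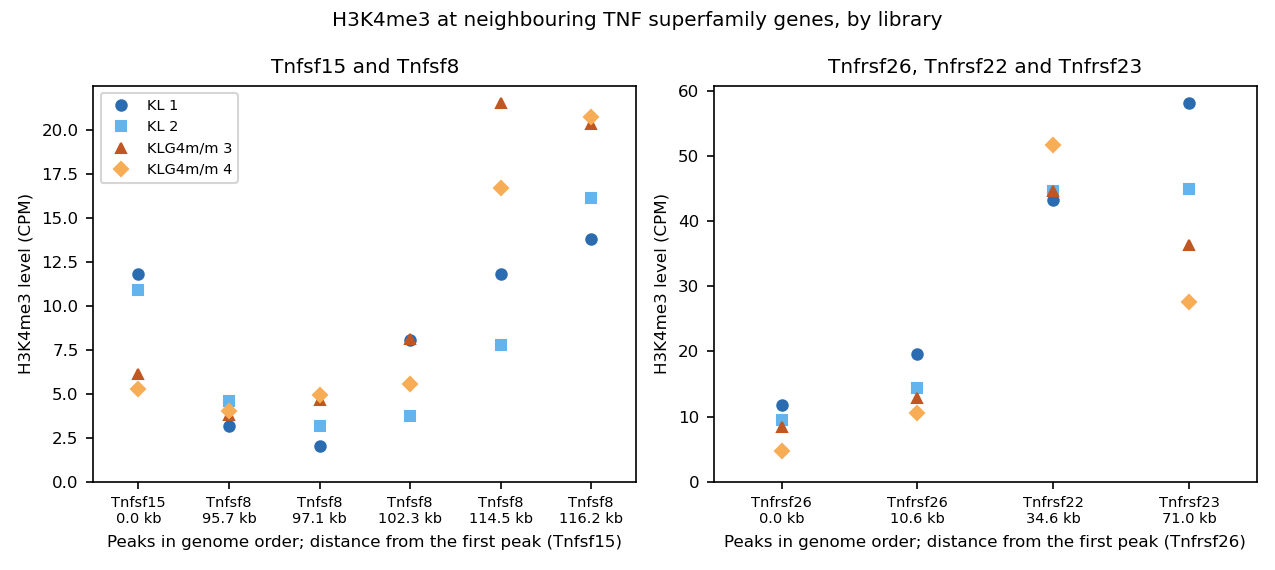
H3K4me3 level (CPM, vertical axis) in each of the 4 libraries at the peaks of 2 groups of neighbouring members, in genome order and evenly spaced, with the distance from the first peak in kb under each. KLG4m/m libraries lie beneath KL libraries at Tnfsf15 and above them at 3 of the 5 Tnfsf8 peaks, and lie beneath them at both Tnfrsf26 peaks and at Tnfrsf23 but not at Tnfrsf22.

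Other genes of the pathway were read from a list of 51 genes, of which 47 had a listed peak. The list holds adaptors, kinases, death effectors, inhibitors and NF-kB genes, and 5 receptor relatives and sheddases that the symbol rule left out. With reads summed per gene, 2 were higher and 3 lower, beside 5.38% and 9.63% of all genes, and the median log2 fold change was 0.04, against 0.0 over all genes. Chuk and Ikbkb, which encode the catalytic kinases of the complex that frees NF-kB, fell from 190 and 205 to 137 and 116 reads (-0.59 ± 0.127, adjusted p = 0.000288 in edgeR) and from 300 and 337 to 240 and 231 reads (-0.38 ± 0.0968, adjusted p = 0.00264). Tab2, an adaptor of the kinase TAK1, fell from 71 and 77 to 63 and 34 reads (-0.55 ± 0.201, adjusted p = 0.0451 in edgeR). Its value was -0.22 without KLG4m/m replicate 4 (adjusted p = 0.581) and the adjusted p was 0.0509 with total-read scaling and 0.0526 with RLE scaling.

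Map3k14, which encodes the NF-kB-inducing kinase of the noncanonical pathway, rose from 545 and 503 to 608 and 559 reads (0.21 ± 0.0703, adjusted p = 0.0288 in edgeR). Relt, a TNF receptor relative outside the symbol rule, rose from 225 and 213 to 271 and 251 reads (0.31 ± 0.102, adjusted p = 0.0272 in edgeR). With only the peak nearest the start site of each gene, the Map3k14 call was lost (0.17, adjusted p = 0.246 in edgeR). Those of Chuk (-0.58), Ikbkb (-0.5), Tab2 (-1.14) and Relt (0.63) were kept there (adjusted p from 0.00124 to 0.0033 in edgeR). None of these 5 genes passed in DESeq2 (adjusted p from 0.0651 to 0.483), in limma (adjusted p from 0.0798 to 0.321) or in edgeR without KLG4m/m replicate 3 or replicate 4, and without KL replicate 2 the calls of Map3k14, Relt, Ikbkb and Tab2 were lost. Without KL replicate 1 those of Relt and Tab2 were lost. None of the 7 death effectors, 8 inhibitors and deubiquitinases or 8 NF-kB subunits and their inhibitors passed in edgeR, where 12.4% of all genes were higher and 16.4% lower at an unadjusted p under 0.05 and 1 gene of each list had such a p (Ripk3 at 0.27, Cyld at -0.21 and Relb at 0.19 on the log2 scale). Tradd, Rnf31, Sharpin and Ikbkg had no peak listed under their symbol.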

How the data were processed

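CUT&Tag with an H3K4me3 antibody was performed on sorted tumor cells of 2 KL and 2 KLG4m/m libraries. The protocol names pAG-MNase as the cleaving enzyme, and no input or IgG control was used here. The labels and the study's text differ on the number of mice, so p-values measure only the spread between these libraries, which may be technical. Per the labels and methods, reads were trimmed (Trim Galore 0.6.10), mapped (BWA 0.7.15) and stripped of mitochondrial, poorly mapped and duplicate reads (Picard 2.17.3), peaks were called with MACS2 2.2.7.1 and annotated (HOMER 4.11.1 is named). The methods name Ensembl release 94 of the mouse genome for mapping, yet 0 of 37 member gene starts in the table matched GRCm38.p6, the assembly of that release, so positions are given as in the table without a build. How peaks were merged and reads counted is not given in the sources used here.

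The authors deposited read counts per 400 bp peak, and CPM values that are these counts scaled to the total in listed peaks. Deposited columns of fold changes and p-values were not used. H3K27ac and RNA-seq were not analysed here. Part of the genotype that both groups share is not reported here.

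Counts of all 35486 peaks, or sums over peaks of 20871 genes, were fitted with edgeR 4.0.16 (R 4.3.3; TMM factors 0.9954 to 1.004; quasi-likelihood test; no filter on low counts) with Benjamini-Hochberg adjustment over the whole table and a threshold of 0.05. CPM in the text are TMM-scaled. An exact permutation test over 2 against 2 libraries cannot reach the threshold. Within groups, counts differed by a chi-square of 1.13 (KL) and 1.23 (KLG4m/m) per degree of freedom, and between groups by 2.37 to 2.8. Alternatives were DESeq2 1.42.0, limma 3.58.1 on log2(CPM + 1), total-read and RLE scaling, a minimum mean of 10 CPM, an added 1.5-fold change, an unadjusted threshold, the peak nearest the start site, and each library left out. Every member was named with the level of its strongest peak. Reads in every library were given for peaks past the threshold, the strongest start site peak of each role and 7 genes whatever their result (Tnf, Fas, Tnfrsf10b, Tnfsf10, Tnfrsf1a, Tnfrsf12a and Cd40), and other peaks were chosen after their values were seen. Members and gene lists were chosen with earlier results of these data known.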

Additional observations from a re-analysis of the deposited data

How the results depend on the processing

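Total-read or RLE scaling kept all 8 member peak calls, and no scaling changed a direction among the named peaks, but both took the lower pathway genes from 3 to 2 through the loss of Tab2. Over all listed peaks 3059 passed in edgeR, 277 in DESeq2, 0 in limma (7330 at an unadjusted p under 0.05 in limma) and 8738 at an unadjusted p in edgeR. Leaving out 1 library gave 0 to 2161 such peaks, 0 to 3 higher and 0 to 3 lower member peaks, 0 to 3 higher and 0 to 5 lower member genes, and 0 to 1 higher and 0 to 2 lower pathway genes. The zeros came without KLG4m/m replicate 3 or replicate 4, where 5486 and 5178 listed peaks had an unadjusted p under 0.05 in edgeR, and, for higher pathway genes, also without KL replicate 2. DESeq2 and limma called 0 members and 0 pathway genes in either direction, and DESeq2 gave no adjusted p for 24 member peaks. At an unadjusted p under 0.05 in edgeR, 16 member peaks were higher and 10 lower, where 11.2% and 13.5% of all listed peaks were. At the same threshold 12 member genes and 6 pathway genes were higher, and 6 member genes and 4 pathway genes were lower. Of all genes, 12.4% were higher and 16.4% lower. A minimum mean of 10 CPM left 20543 peaks, with 3 member peaks lower and a median member log2 fold change of 0.12, which was also 0.12 in limma and 0.07 to 0.13 with 1 library left out. The peak nearest the start site gave 2 higher member genes, and an added 1.5-fold change left 1 higher member gene, 0 higher pathway genes and 1 lower pathway gene. Values that changed sign with 1 library left out were those of the Tnfsf10 start site (-0.16 to 0.2), Eda (-0.1 to 0.02) and Tnfrsf1a (-0.05 to 0.00298). Apart from these limits by construction (fewer peaks or libraries), the cause was not tested. No paired analysis was possible because the KL libraries are numbered 1 and 2 and the KLG4m/m libraries 3 and 4, so the compared groups share no replicate number. Peaks under about 20 reads per library, such as the distal Tnfsf10 peak, carry counting error as large as many of the differences.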
